A study of Danio rerio with 6 samples.

Results

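The embryonic globins and the genes that supply haem and iron to the red cell were examined in cells sorted from *drl:EGFP* zebrafish embryos. The set holds 10 genes, namely the β-type embryonic globins *hbbe1.1*, *hbbe2* and *hbbe3*, the α-type embryonic globins *hbae1.1*, *hbae1.3* and *hbae3*, the haem synthesis genes *alas2*, *urod* and *fech*, and the transferrin receptor gene *tfr1a*. They were picked by name, and every transcript cluster listed under one of these names was used. A transcript cluster is the set of array probes summed into 1 value, and covers a gene or part of one. The 10 genes have 16 of the 75212 clusters on the array. A pair of *hbbe1.1* clusters has the same values on all arrays and was counted once, which leaves 15 clusters out of 65940 with distinct values. Of the names, 7 stand in the deposited annotation as such, while *hbbe1.1*, *hbae1.1* and *hbae1.3* are listed there under older names and were found through RefSeq.

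EGFP-positive and EGFP-negative cells were sorted from embryos of 1 family of fish homozygous for *drl:EGFP* that was mass-mated on 3 separate occasions, with collection at the 2 somite stage. In this line the regulatory element of *draculin* drives the reporter, and dead cells were gated out of both fractions with propidium iodide. The study has 3 EGFP-positive and 3 EGFP-negative arrays, every array carries RNA of many pooled embryos, and embryos without the transgene were not part of it. All 10 lateral plate mesoderm genes of a check list, such as *drl*, *tal1* and *hand2*, were higher in EGFP-positive cells. Of the epidermal genes 7 of 8 were lower, and of the neural plate genes 8 of 10. Over all named genes, 4.13% were higher and 3.49% lower. These lists were chosen with earlier results of these data known. Array medians lay between 5.02 and 5.10 on the log2 scale, and the lowest values lay between 1.96 and 2.12. Probe background was not measured, so signals near or below the medians could not be separated from it.

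Haemoglobin is a tetramer of α-type and β-type globin chains, each of which holds a haem group with an iron atom. In zebrafish the first red cells arise from the posterior lateral plate mesoderm and use embryonic globins, whose genes lie at a major locus on chromosome 3, shared with the adult globins, and at a minor locus on chromosome 12. Haem is assembled from glycine and succinyl-CoA in a chain of enzymes that starts with Alas2 in red cell precursors, passes through Urod, and ends when Fech inserts the iron. Transferrin receptors bring that iron into the cell. The genes *alas2*, *urod*, *fech* and *tfr1a* are known in this species from the anaemic or light-sensitive mutants *sauternes*, *yquem*, *dracula* and *chianti*.

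The embryonic globins *hbbe1.1*, *hbae1.1* and *hbae1.3* of the chromosome 3 locus and the transferrin receptor gene *tfr1a* were higher in EGFP-positive cells, whereas the globins of chromosome 12 and the haem synthesis genes did not differ detectably. The fractions were set against each other by limma over all clusters, and a cluster was counted as changed at a Benjamini-Hochberg adjusted p under 0.09, the false discovery rate of the study's methods. Of the 15 clusters, 7 were higher, beside 2.96% of all distinct clusters. None of the 15 was lower by limma, beside 2.03% of all distinct clusters. By the statistic of significance analysis of microarrays (SAM), and at an unadjusted p under 0.05, none was lower either. The share of all clusters at that unadjusted p was not counted. Over all 75212 clusters, SAM called 1022 higher and 645 lower. The 7 belong to *hbbe1.1*, *hbae1.1*, *hbae1.3* and *tfr1a*. For 8 of the 15 clusters the arrays of the EGFP-positive fraction all lay above those of the EGFP-negative one, beside 11.3% of all distinct clusters, and for 0 they all lay below, beside 9.26%. The median log2 difference was 0.54 over the 15 clusters and 0.01 over all distinct clusters. By 1 cluster per gene, the one with the highest mean, 4 of the 10 genes were higher and 0 lower, beside 4.13% and 3.49% of the named genes, and the arrays did not overlap for 5 of the 10, all with EGFP-positive above, beside 12.9% above and 12.6% below. A permutation test, exact and two-sided, cannot reach a p below 0.1 with 3 arrays against 3, which is its value for each of the 8 clusters without overlap. In a bulk sample, a larger share of cells that make a transcript and more of that transcript in each cell cannot be told apart.

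**Figure D1:**
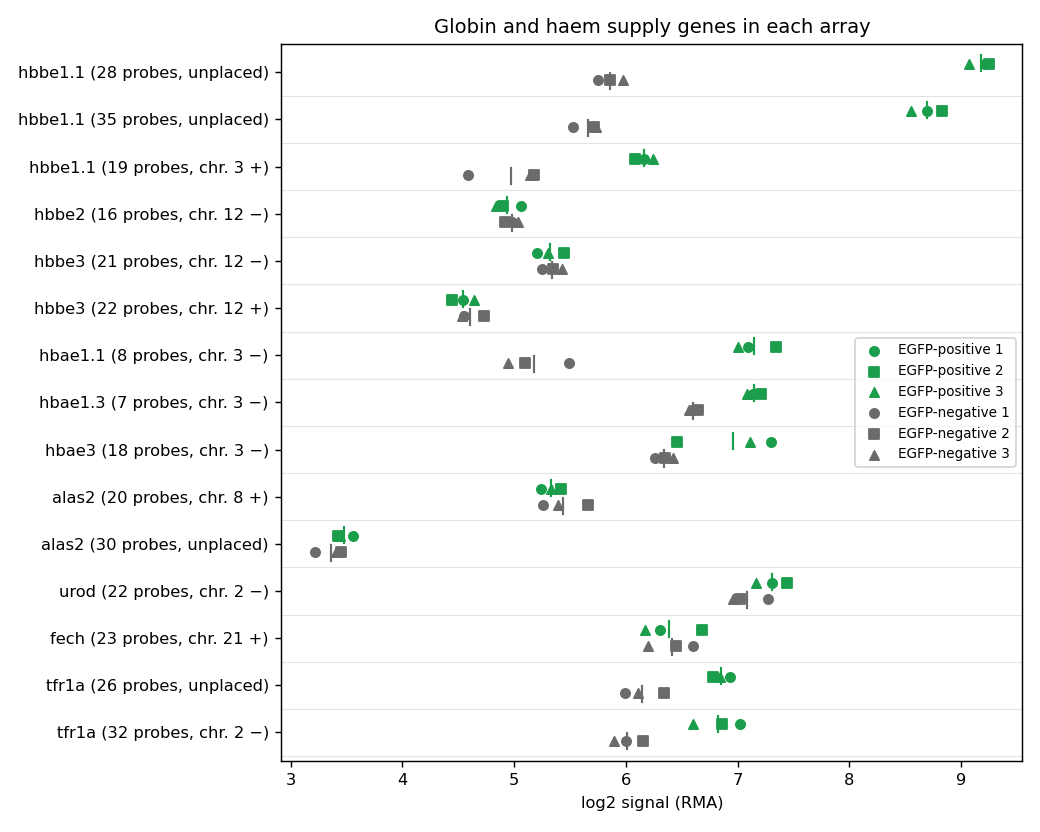
Log2 signal (horizontal axis) of each of the 15 transcript clusters, with a point for every array, EGFP-positive in green above EGFP-negative in grey, and a vertical tick at the mean of each fraction. The fractions lie far apart for the unplaced *hbbe1.1* clusters (means of 9.18 and 8.69 in EGFP-positive against 5.86 and 5.66 in EGFP-negative cells) and overlap for *hbbe2*, *hbbe3*, *alas2*, *urod* and *fech*.

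Among the β-type globins *hbbe1.1* had the largest difference. Its brightest cluster, of 28 probes on unplaced sequence of the Zv9 assembly, had log2 signals of 9.22, 9.25 and 9.07 in EGFP-positive cells, against 5.75, 5.85 and 5.98 in EGFP-negative cells. Replicates of a fraction thus lay within 0.3 of each other while the fractions were more than 3 log2 units apart. The log2 difference was 3.32 with a standard error of 0.10, or 9.98-fold (95% interval of the log2 difference from 3.09 to 3.55, limma, adjusted p = 0.000112). By this cluster *hbbe1.1* was 16th among 25784 named genes, each taken by its brightest cluster, and its other clusters had smaller differences. A second unplaced cluster, of 35 probes, had signals of 8.69, 8.83 and 8.55 in EGFP-positive cells, against 5.53, 5.71 and 5.74 in EGFP-negative cells. It was 8.19-fold higher (limma, adjusted p = 0.000148). Both are listed as 444 bases long, and the files place them on no chromosome.

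The third *hbbe1.1* cluster, of 19 probes, is the only one of this gene with a position, on the forward strand of chromosome 3 of Zv9 from 55965769 to 55983949. Its log2 signals were 6.16, 6.08 and 6.25 in EGFP-positive cells, against 4.59, 5.17 and 5.14 in EGFP-negative cells, where replicate 1 was the lowest array. The log2 difference of 1.19 ± 0.17 (standard error) passed the threshold (2.29-fold, limma, adjusted p = 0.011). This cluster spans 18181 bases, far longer than a globin gene. In RefSeq, whose GRCz12tu assembly was used here for names and neighbours only, 3 copies of *hbbe1* alternate with 3 copies of *hbae1* on chromosome 3. How many of these copies the span holds in Zv9 was not determined. Signals of the copies were not told apart, and each *hbbe1.1* value can hold RNA of the other copies. The log2 difference of the unplaced 28-probe cluster exceeded that of this one by 2.12 with a standard error of 0.17. The EGFP-negative signals of the chromosome 3 cluster lie near or below the array medians, so its difference may be understated. The clusters also differ in their probes. What causes the gap was not tested, and no conclusion was drawn from it.

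The other β-type genes lie at the minor locus and did not pass the threshold. For *hbbe2*, on the reverse strand of chromosome 12 from 21702358 to 21703122, log2 signals were 5.06, 4.90 and 4.83 in EGFP-positive cells, against 4.98, 4.92 and 5.03 in EGFP-negative cells. The fractions overlap, and the log2 difference of -0.04 has a 95% interval from -0.27 to 0.18 (limma, adjusted p = 0.89). Its signals lie near the array medians. For *hbbe3*, on the reverse strand from 21691906 to 21693038, signals were 5.21, 5.45 and 5.30 in EGFP-positive cells, against 5.25, 5.35 and 5.43 in EGFP-negative cells, with a log2 difference of -0.02 and an interval from -0.26 to 0.21. A second cluster of *hbbe3* is listed at the same place on the opposite strand, and had means of 4.54 in EGFP-positive cells and 4.60 in EGFP-negative cells.

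All 3 α-type genes of the set lie on the reverse strand of the chromosome 3 locus, with log2 differences between 0.54 and 1.97. The cluster of *hbae1.1*, from 55972039 to 55979930 with 8 probes, had log2 signals of 7.09, 7.34 and 7.0 in EGFP-positive cells, against 5.49, 5.09 and 4.94 in EGFP-negative cells. It was 3.91-fold higher (log2 difference 1.97 ± 0.16, standard error, limma, adjusted p = 0.00131). The 7892 bases of this cluster lie inside the span of the *hbbe1.1* cluster on the opposite strand. The cluster of *hbae1.3*, from 55990093 to 55990796 with 7 probes, had 7.13, 7.21 and 7.08 in EGFP-positive cells, against 6.59, 6.64 and 6.56 in EGFP-negative cells. Its replicates were the tightest of the α-type genes, and its ratio of 1.46-fold passed the threshold (limma, adjusted p = 0.0147). The EGFP-negative signals of *hbae1.1* lie near the array medians. Few probes stand behind either value, and the *hbae1* copies resemble each other.

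For *hbae3*, from 55998269 to 55999416, the result turned on a single array. Log2 signals were 7.30, 6.46 and 7.11 in EGFP-positive cells, against 6.26, 6.35 and 6.42 in EGFP-negative cells. EGFP-positive replicate 2 lay only just above the highest EGFP-negative array, while replicates 1 and 3 were clearly above. The log2 difference of 0.62 (95% interval from 0.12 to 1.11) did not pass over all clusters (limma, adjusted p = 0.23). Without EGFP-positive replicate 2 it was 0.86 with an adjusted p of 0.0213, and over all alternatives the adjusted p ranged from 0.0213 to 0.466. The other α-type genes were not low in that array, where *hbae1.1* and *hbae1.3* had their highest values.

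**Figure D2:**
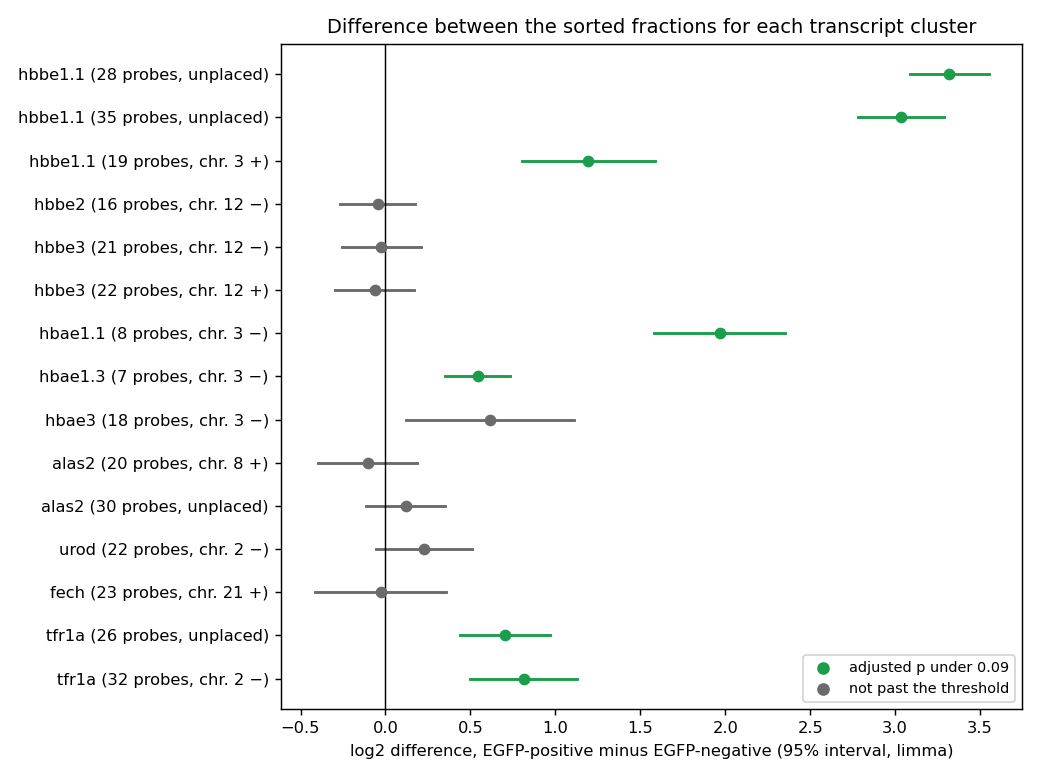
Log2 difference of EGFP-positive minus EGFP-negative cells (points) with its 95% interval from limma (lines) for each of the 15 transcript clusters, green where the adjusted p is under 0.09. The 7 green clusters belong to *hbbe1.1*, *hbae1.1*, *hbae1.3* and *tfr1a*, and the intervals of *hbbe2*, *hbbe3*, *alas2*, *urod* and *fech* include 0.

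Along the chromosome 3 locus, the clusters fell into a stretch of adult globins near 0 and a stretch of embryonic globins with positive differences. The adult clusters *hbba2*, *hbaa2*, *hbba1*, *hbaa1* and si:ch211-5k11.8 had log2 differences between -0.06 and 0.15 and signals below the array medians, with means of 3.28 in EGFP-positive cells and 3.31 in EGFP-negative cells for *hbba1*. None passed the threshold. The embryonic clusters follow on the same chromosome within 6.27 kb before and 27.4 kb after the start of *hbae1.1*. Beyond *hbae3* comes an unnamed cluster on the same strand from 56006606 to 56007336, singled out after its values were seen. It had log2 signals of 7.47, 6.69 and 7.22 in EGFP-positive cells, against 5.42, 4.98 and 5.21 in EGFP-negative cells, and was 3.79-fold higher (limma, adjusted p = 0.00428). As with *hbae3*, EGFP-positive replicate 2 was its lowest EGFP-positive array.

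The gene next to the embryonic globins, *kank2*, was higher too. It encodes a scaffold protein of cell adhesions, is listed in the files under its RefSeq gene number, and lies on the reverse strand from 56013299 to 56049553. Its log2 signals were 9.13, 9.11 and 9.01 in EGFP-positive cells, against 7.60, 7.09 and 7.35 in EGFP-negative cells, or 3.33-fold higher (limma, adjusted p = 0.00108). The next gene, *dock6*, did not pass, with a log2 difference of -0.29 by its cluster of 32 probes (limma, adjusted p = 0.30). Its other clusters, on the opposite strand and on unplaced sequence, had differences of 0.12 and 0.04 and did not pass either. Before the adult globins, *nprl3*, whose introns hold globin enhancers in other vertebrates, had means of 7.17 in EGFP-positive cells and 7.0 in EGFP-negative cells (limma, adjusted p = 0.64). In all, 5 of the 17 clusters listed from the adult globins to *dock6* were higher and 0 were lower, beside 2.96% and 2.03% of all distinct clusters, and 3 of the 5 are the clusters of *hbbe1.1*, *hbae1.1* and *hbae1.3* given above. *kank2* and *dock6* were singled out after their values were seen.

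At the minor locus on chromosome 12, none of the 10 clusters listed passed the threshold, beside 2.96% higher and 2.03% lower of all distinct clusters. Besides *hbbe2* and *hbbe3* these include the α-type gene *hbae4*, at 3.51 in EGFP-positive cells and 3.62 in EGFP-negative cells, and a cluster named hbz at 4.50 and 4.55 in these fractions. RefSeq gives hbz as an older name of both *hbae4* and *hbae5*, so by name it was assigned to neither. The cluster named hbz runs from 21694950 to 21706034, past *hbbe2*, while the *hbae4* cluster lies before *hbbe3*. As RefSeq orders these genes as *hbae4*, *hbbe3*, *hbbe2* and *hbae5*, its place is closer to that of *hbae5*. The 3 clusters of *hbbe2* and *hbbe3* and those of *hbae4* and hbz lie below or near the array medians. Equal low levels and an absence of these transcripts look alike there.

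**Figure D3:**
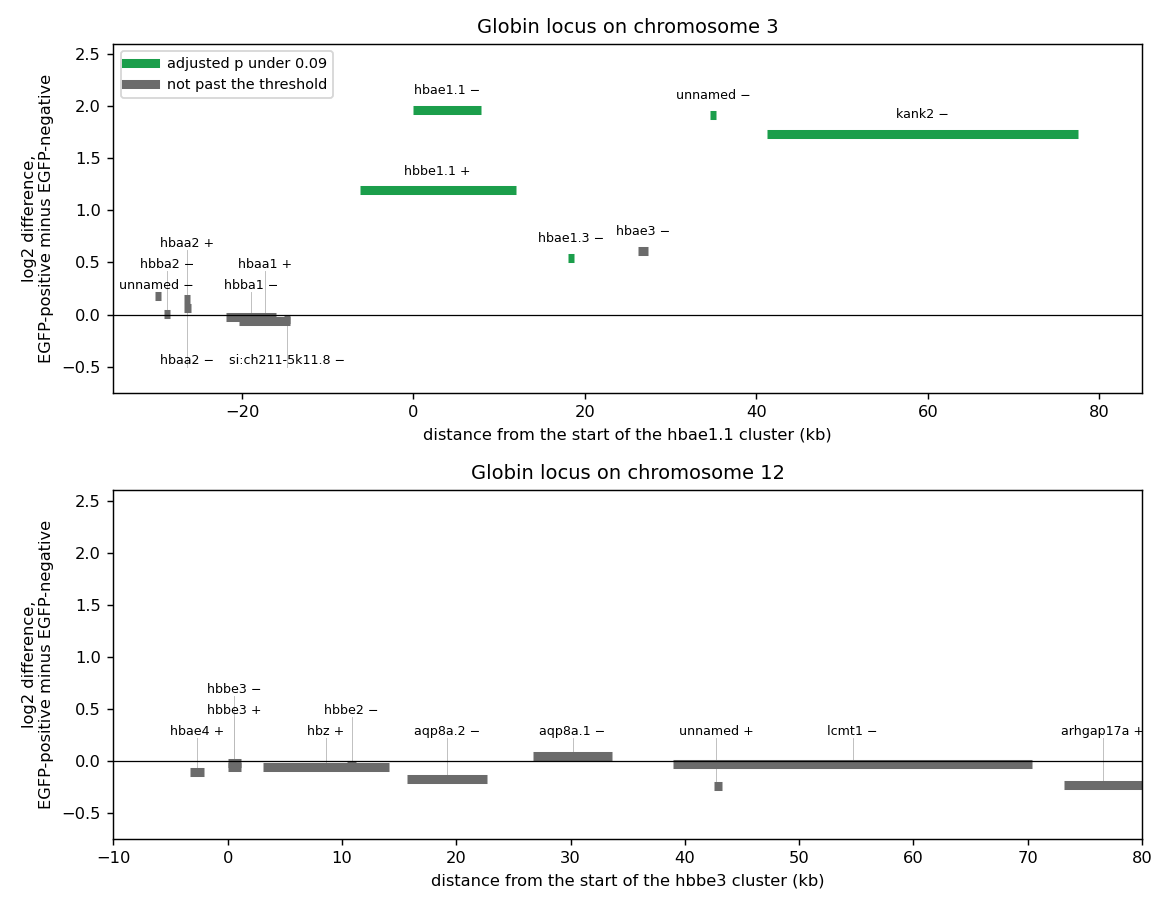
Log2 difference of EGFP-positive minus EGFP-negative cells (vertical axis) of the clusters at the chromosome 3 locus (top) and the chromosome 12 locus (bottom) against the distance in kb from the start of the *hbae1.1* or *hbbe3* cluster, with bars as long as the clusters (the shortest widened to stay visible, the longest ended at the axis), the strand behind each name, and green for an adjusted p under 0.09. At the top, green bars run from *hbbe1.1* (1.19) to *kank2* (1.74) with *hbae3* grey among them and adult globins near 0 to their left, while no bar at the bottom is green.

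Adult globin clusters on unplaced sequence did not pass either, some of them at higher signals. The genes *hbba1*, *hbba2* and *hbaa1* encode chains of the adult haemoglobin. For *hbba1*, listed as ba1, the brightest unplaced cluster had log2 signals of 7.69, 7.77 and 7.57 in EGFP-positive cells, against 7.76, 7.98 and 7.94 in EGFP-negative cells. The log2 difference of -0.22 has a 95% interval from -0.46 to 0.02 (limma, adjusted p = 0.38). For *hbaa1* the brightest unplaced cluster had means of 6.14 in EGFP-positive cells and 6.15 in EGFP-negative cells, while another with the same number of probes had 3.93 and 4.03. Over the 5 other globin genes measured, 0 were higher and 0 were lower by limma, by a SAM statistic or at an unadjusted p under 0.05, with a median log2 difference of -0.10. The median over all named genes was -0.0045, and by limma 4.13% of them were higher and 3.49% lower. *hbbe1.2*, *hbae1.2* and *hbae5* had no cluster under their own names.

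Of the 4 genes for haem and iron, the transferrin receptor alone was higher. *tfr1a*, which red cell precursors need for their iron uptake, has a cluster of 32 probes on the reverse strand of chromosome 2 from 4738463 to 4756752. Its log2 signals were 7.02, 6.86 and 6.60 in EGFP-positive cells, against 6.0, 6.15 and 5.89 in EGFP-negative cells, or 1.76-fold higher (limma, adjusted p = 0.0217). A second cluster, of 26 probes on unplaced sequence, had 6.93, 6.78 and 6.84 in EGFP-positive cells, against 5.99, 6.34 and 6.10 in EGFP-negative cells. It was 1.63-fold higher (log2 difference 0.71 ± 0.11, standard error, limma, adjusted p = 0.0192). The fractions do not overlap in either cluster, and the 95% intervals, from 0.50 to 1.13 and from 0.44 to 0.97, cover much the same range. The SAM statistic called the unplaced cluster and not the one on chromosome 2. Its paralog *tfr1b* had means of 5.67 in EGFP-positive cells and 5.60 in EGFP-negative cells (limma, adjusted p = 0.77).

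The first haem enzyme of the red cell, *alas2*, did not differ detectably. On chromosome 8 (forward strand, 21891878 to 21907046) its log2 signals were 5.24, 5.42 and 5.33 in EGFP-positive cells, against 5.25, 5.66 and 5.39 in EGFP-negative cells. These overlap and lie near the array medians, with a log2 difference of -0.11 and a 95% interval from -0.40 to 0.18 (limma, adjusted p = 0.77). An unplaced cluster of 30 probes gave 3.48 in EGFP-positive cells and 3.36 in EGFP-negative cells on average (limma, adjusted p = 0.65). The interval of the brighter cluster lies below the difference of either *tfr1a* cluster, but the change of a gene near the background may be understated on this scale.

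The later enzymes had signals above the array medians in both fractions. *urod*, on the reverse strand of chromosome 2 from 27703773 to 27723973, had log2 signals of 7.31, 7.44 and 7.17 in EGFP-positive cells, against 7.27, 7.02 and 6.96 in EGFP-negative cells. EGFP-negative replicate 1 lies within the EGFP-positive range, and the log2 difference of 0.23 has a 95% interval from -0.06 to 0.51 (limma, adjusted p = 0.46). *fech*, on the forward strand of chromosome 21 from 1970835 to 1996552, had 6.30, 6.68 and 6.17 in EGFP-positive cells, against 6.60, 6.45 and 6.20 in EGFP-negative cells. Replicates of *fech* spread over about 0.5 within a fraction, and the difference of -0.03 has an interval from -0.41 to 0.36 (limma, adjusted p = 0.96). The log2 difference of *tfr1a*, by its unplaced cluster, exceeded that of *urod* by 0.48 with a standard error of 0.21. It exceeded that of *fech* by 0.73 with a standard error of 0.25 (exact two-sided permutation test, p = 0.1 for each, the smallest possible). For *urod* the fractions were barely apart. The signal of *tfr1a* minus that of *urod* was -0.67 in EGFP-positive replicate 2 and -0.68 in EGFP-negative replicate 2. Against the brighter cluster of *alas2* the excess was 0.81 with a standard error of 0.10 (exact two-sided permutation test, p = 0.1). As *alas2* lies near the array medians, no conclusion was drawn from that value. These pairs are among 10 pairs of clusters compared, and were chosen with their values known.

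None of the remaining genes of haem synthesis passed. Of 7 such genes, 0 were higher and 0 were lower by limma, by a SAM statistic or at an unadjusted p under 0.05. Their median log2 difference was -0.07. Of all named genes, 4.13% were higher and 3.49% lower by limma, so the short lists of this paragraph can hold 0 calls without differing from all genes. The largest value was that of *hmbsa*, the hydroxymethylbilane synthase, at 0.34 with means of 8.68 in EGFP-positive cells and 8.34 in EGFP-negative cells (limma, adjusted p = 0.41). *alas1*, the form of the first enzyme that most cells use, had 8.58 in EGFP-positive cells and 8.50 in EGFP-negative cells. Of 18 genes of iron uptake, mitochondrial iron and iron storage, 0 passed by limma or by a SAM statistic, and the median was 0.03. At an unadjusted p under 0.05, 1 was higher, with the share of all genes not counted. That gene was the iron exporter *slc40a1*, at 5.43, 5.31 and 5.31 in EGFP-positive cells, against 5.08, 4.97 and 4.80 in EGFP-negative cells (limma, adjusted p = 0.109). Its signals lie near the array medians. Ferritin, by *fth1a*, had means of 11.51 in EGFP-positive cells and 11.56 in EGFP-negative cells. The mitochondrial iron importer *slc25a37*, mutated in *frascati*, had 8.09 in EGFP-positive cells and 7.98 in EGFP-negative cells, and the ferritin receptor *ncoa4* had 9.23 and 9.02 in these fractions.

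The only gene of the haem and iron lists to pass was lower. With 3.49% of all named genes lower, lists of 7, 18 and 6 genes can hold 1 such call without differing from all genes. Of 6 genes of haem export, transport and breakdown, 1 was lower (beside 3.49% of all named genes) and the others did not pass, with a median log2 difference of -0.04. The haem exporter *flvcr1* had log2 signals of 5.79, 5.77 and 5.70 in EGFP-positive cells, against 7.09, 6.69 and 6.79 in EGFP-negative cells. It was 2.14-fold lower (limma, adjusted p = 0.00389), and its fractions do not overlap. *blvra*, a biliverdin reductase, had a mean of 7.75 in either fraction, and the haem transporter *slc48a1a* had 7.20 in EGFP-positive cells and 7.02 in EGFP-negative cells.

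Regulators of the red cell lineage were higher in part. Of 16 such genes, 6 were higher and 0 were lower (median log2 difference 0.30), beside 4.13% higher and 3.49% lower of all named genes. At an unadjusted p under 0.05, 9 were higher and 0 were lower, with the share of all genes not counted. The SAM statistic called 6 higher and 0 lower, beside 1022 higher and 645 lower of all 75212 clusters. The latter are clusters rather than genes, and the share of genes called by SAM was not counted. The 16 genes were chosen with their values known, and *tal1* and *lmo2* also stand in the lateral plate list. Each gene was read by its brightest cluster only. Of those that passed, *lmo2*, *blf* and *trim33* have 3 distinct clusters each and *zfpm1* has 2. *zfpm1*, a partner of Gata1 also known as Fog1, had means of 9.79 ± 0.24 in EGFP-positive cells and 7.88 ± 0.07 in EGFP-negative cells (SD, n = 3 each), or 3.74-fold higher (limma, adjusted p = 0.000687). The repressor *gfi1b* was 2.36-fold higher, the zinc finger gene *blf*, which embryonic globin expression requires in zebrafish, was 1.96-fold higher, and *trim33*, mutated in *moonshine*, was 1.49-fold higher (limma, adjusted p of 0.00299, 0.00942 and 0.0106 in this order). *tal1* was 14.5-fold and *lmo2* 8.27-fold higher (limma, adjusted p of 0.00556 and 0.0182 in this order), and in both cases EGFP-positive replicate 1 was the highest array. For *tal1* it reached 9.84, while replicates 2 and 3 of that fraction had 8.53 and 8.03. The EGFP-negative mean of *tal1*, 4.95, lies near the array medians. The EGFP-positive arrays of *hbbe1.1* lay too close together, at 9.22, 9.25 and 9.07, for their order to be set against that of *tal1*.

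Of the regulators that did not pass, *gata1a*, the central activator of red cell genes, has 3 distinct clusters, of which only the brightest was read. Its log2 signals were 5.30, 5.09 and 5.34 in EGFP-positive cells, against 5.39, 5.21 and 5.80 in EGFP-negative cells. These lie near the array medians and overlap (95% interval of the difference from -0.60 to 0.16, limma, adjusted p = 0.61). The Lmo2 partner *ldb1a* had means of 10.91 in EGFP-positive cells and 10.75 in EGFP-negative cells, and *znfl2* had 10.46 and 10.11 in these fractions. Of 9 genes of the red cell membrane and of red cell enzymes, 0 passed by limma or SAM, beside 4.13% higher and 3.49% lower of all named genes by limma. Their median difference was -0.08. At an unadjusted p under 0.05, 1 had a negative difference, with the share of all genes not counted. The signal of *slc4a1a*, which encodes the anion exchanger band 3, was 4.88 in EGFP-positive cells and 4.96 in EGFP-negative cells. *creg1* had 6.67 in EGFP-positive cells and 7.03 in EGFP-negative cells, and *ank1a*, for ankyrin of the membrane skeleton, had 5.77 and 5.94 in these fractions.

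**Figure D4:**
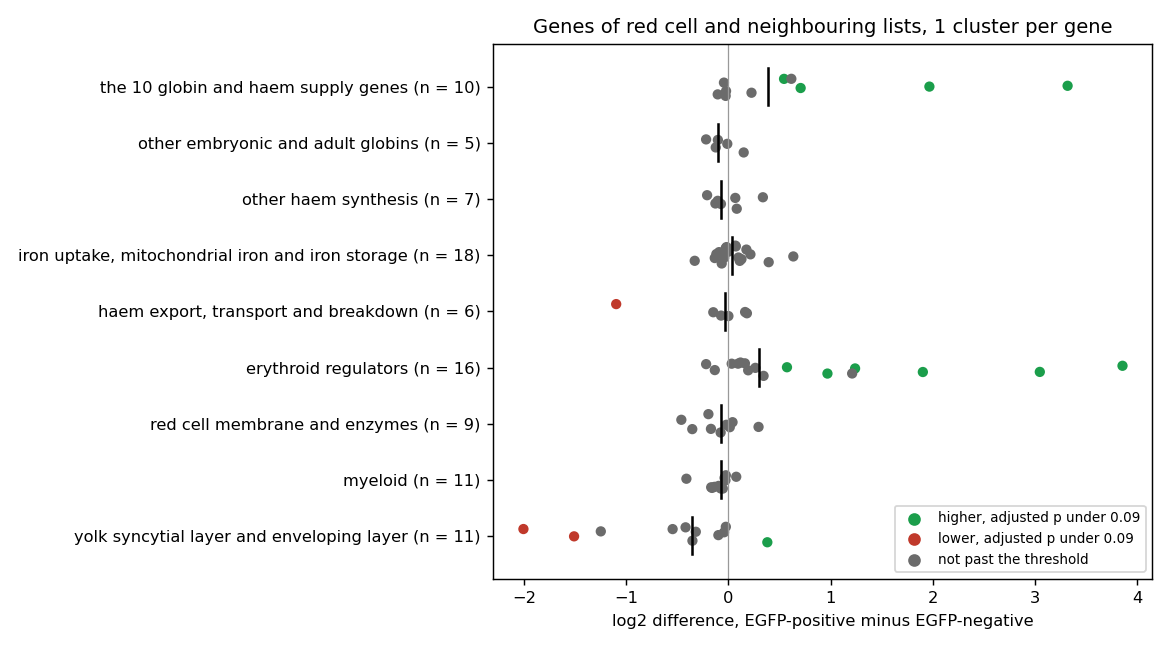
Log2 difference of EGFP-positive minus EGFP-negative cells (horizontal axis) of single genes, 1 cluster per gene with vertical scatter for legibility, in the 10 globin and haem supply genes and in 8 lists, with a black tick at each median, green for higher and red for lower at an adjusted p under 0.09. Of the 16 erythroid regulators 6 are green, while *flvcr1* is the 1 coloured point among the haem and iron lists.

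Besides the epidermal and neural plate genes, most of which were lower, markers of blood and surface cells were read. By limma, 4.13% of all named genes were higher and 3.49% lower. Of 11 myeloid genes, 0 passed by limma or SAM. At an unadjusted p under 0.05, 1 had a negative difference, with the share of all genes not counted. The log2 of the summed myeloid signal ranged from 8.77 to 9.02 in EGFP-positive cells and from 8.94 to 9.12 in EGFP-negative cells. The granulocyte gene *mpx* had means of 5.24 and 5.40 in these fractions. Of 11 genes of the yolk syncytial and enveloping layers, 2 were lower, *krt4* and *cyt1*, and 1 was higher, *ttr*, at 4.92 in EGFP-positive cells and 4.54 in EGFP-negative cells (limma, adjusted p = 0.079). Both *ttr* means lie below the array medians, its adjusted p is above the stricter threshold of 0.05, and the SAM statistic called 0 genes of this list higher and 1 lower. The log2 of their summed signal ran from 12.79 to 13.00 in EGFP-positive cells and from 13.10 to 13.55 in EGFP-negative cells.

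The genes whose profile over the 6 arrays was most like that of *hbbe1.1* were *tbx1*, *pltp*, si:ch73-234b20.5, *drll.1* and *fgfrl1b*. Likeness was the root mean square distance between log2 signals, each gene centred on its own mean and taken by its brightest cluster, and ran from 0.106 for *tbx1* to 0.143 for *fgfrl1b*. Globins and the other genes of the set were left out of this search. For *tbx1*, a T-box gene of the pharyngeal and cardiac mesoderm, log2 signals were 10.57, 10.70 and 10.64 in EGFP-positive cells, against 7.26, 7.17 and 7.59 in EGFP-negative cells. The gene *drll.1*, a *draculin*-like gene, had 10.40, 10.65 and 10.66 in EGFP-positive cells, against 7.09, 7.03 and 7.38 in EGFP-negative cells. The log2 differences between the fractions ran from 3.10 to 3.49 over these 5 genes, beside 3.32 for *hbbe1.1*. That closeness follows from the choice, as the distance is set mostly by the gap between the fractions.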

How the data were processed

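RNA of both fractions was hybridized to single-channel Affymetrix ZebGene arrays designed on Zv9. The deposited log2 signals were made by the authors with MAS background correction and RMA to the gene level in ExpressionConsole, whose version is not given in the sources used here. The authors' columns of fold changes and p-values hold their own comparison and were not used. Annotation columns supplied names, positions and probe numbers. Older symbols were updated through RefSeq (GRCz12tu), by the gene number where the name holds one and otherwise by uniquely matching synonyms only.

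All 75212 clusters were fitted with limma 3.58.1 in R 4.3.3 (lmFit, eBayes, two-sided, no covariates, adjusted p under 0.09), and tables were made with Python 3.11.15, pandas 2.3.3 and scipy 1.17.1. The methods name siggenes, which was not used here, and a SAM statistic over all assignments of the arrays was an alternative. A check on simulated data drew independent arrays and planted changes only in clusters above the median level. Only recovery of the largest planted changes was required, so it does not show that smaller ones are found. Each gene was read by its brightest cluster on average. Named are all 10 genes, members of each list past the threshold or with the highest signals, and the 5 profiles nearest to *hbbe1.1*, with further genes chosen after their values were seen. The genes and lists were chosen with earlier results of these data known. Replicates were taken as separate matings. There is no sequencing depth here, and precision is limited by the number of arrays. Alternatives were a stricter threshold of 0.05, an intensity trend, a replicate block, quantile normalization, median centring, a filter on low signals, identical clusters counted once, the SAM statistic, the mean of a gene's clusters and leaving out each array.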

Additional observations from a re-analysis of the deposited data

How the results depend on the processing

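Of the 15 clusters, 7 were higher with the replicate block and 6 with the SAM statistic, which lost the chromosome 2 cluster of *tfr1a*, and between 7 and 8 were higher when single arrays were left out, with 0 lower throughout. Over all 75212 clusters the SAM statistic called 1022 higher and 645 lower. By 1 cluster per gene, between 4 and 5 of the 10 genes were higher without single arrays and 0 were lower. The added call in both counts was *hbae3* without EGFP-positive replicate 2. The block changed no call among these clusters at the threshold of 0.09. With it, the limma adjusted p rose from 0.0147 to 0.058 for *hbae1.3*. For the unplaced cluster of *tfr1a* it rose from 0.0192 to 0.0738. Over all alternatives the highest adjusted p was 0.0678 for *hbae1.3*. It was 0.0803 for the unplaced and 0.0853 for the chromosome 2 cluster of *tfr1a*. For the chromosome 3 cluster of *hbbe1.1* it was 0.0483, and for *hbae1.1* 0.00908. Deviations of equally numbered arrays correlated at -0.03, 0.04 and 0.09 over all clusters. Such correlations cannot show whether equal numbers mark the same mating, and the labels do not say so. Counts of the erythroid regulators (6 higher, 0 lower), of the other globins (0 and 0) and of the red cell membrane and enzyme genes (0 and 0) were the same without any single array. Over the other haem and iron genes together 0 were higher, but 1 was with only clusters above the median level and with identical clusters counted once (*slc40a1*, adjusted p = 0.0743 and 0.0865, from 0.0743 to 0.294 over all alternatives), and the count ran from 0 to 1 without single arrays, where the 1 was *tfa* without EGFP-negative replicate 3 (log2 difference 1.08, adjusted p = 0.0636). Their count of lower genes stayed at 1. The mean of its distinct clusters gave *hbbe1.1* a log2 difference of 2.52. The filter that kept only clusters above the median level left no value for *hbbe2*, the 22-probe cluster of *hbbe3* and the unplaced cluster of *alas2*. The 3 arrays per fraction, the unknown background of clusters near the array medians and probes that globin copies may share limit all of these values.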
